A study of Mus musculus with 4 samples.

Results

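The circadian clock genes Clock, Arntl, Per1, Per2, Per3, Cry1, Cry2, Nr1d1, Nr1d2 and Dbp were followed in RNA recovered with an antibody against CPEB2 from mouse forebrain. Their probes were taken by name, as every non-control spot annotated with one of these symbols on all 4 arrays, and this gave 14 of 55681 distinct probes and 10 of 24185 named genes. RNA immunoprecipitation (RIP) captures a protein on antibody-coated beads and recovers the RNA held with it, and RNA from beads carrying a non-specific control IgG measures the background. Lysate of cortex and hippocampus from 8-week-old male C57BL/6 mice was split between beads with CPEB2 IgG and beads with control IgG in 2 independent experiments, so that 2 arrays per antibody form 2 pairs. The labels name no other allele and no treatment, and how many animals went into a lysate is not given in the sources used here. RNA from each precipitate was labelled with Cy3 and hybridised to a single-colour Agilent array. No array of the starting lysate was used here, so a value below is a difference between 2 precipitates and not an amount of RNA in the tissue.

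The mammalian clock is a transcriptional feedback loop. CLOCK and BMAL1, the product of Arntl, activate genes with E-box elements, among them the Per and Cry genes, whose proteins return to the nucleus and repress CLOCK and BMAL1. A further loop runs through REV-ERBα and REV-ERBβ, the products of Nr1d1 and Nr1d2, which repress Arntl, and the D-box factor DBP passes the rhythm to output genes. The loop is best known from the suprachiasmatic nucleus, but it also runs in cortex and hippocampus, where the mRNA levels of most of these genes depend on the time of day. CPEB2 is an RNA-binding protein that recognises cytoplasmic polyadenylation elements (CPEs) in 3′ untranslated regions and regulates translation. The time of day at which the tissue was taken is not given in the sources used here, and both antibodies of a pair received the same lysate.

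Each array probe is a 60-base DNA whose sequence follows the mRNA strand. The first 30 bases are given for the probes that were called, for the Per1 probe that was not, and for both Nr1d2 probes, of which one has a doubtful listed position, because the values refer to these probes.
Clock, A_52_P334670: ttcccatttgagttgctcttgtaatatttt
Per1, A_55_P1970033: gtgttctcagctctaccctctaccaatgac
Per1, A_55_P2019327: ttagtgtttcagggcagtagaggtggccgg
Per2, A_51_P282760: acctttcacagtgatcaggtagtagccatg
Nr1d1, A_51_P223776: ggcacctttgaggtgctgatggtgcgcttt
Nr1d2, A_52_P303891: ccagaactgttagtattgcttgtgatgctt
Nr1d2, A_55_P2148534: ctgtgaggggagctcagatagatgtatctt
Bases 21 to 50 of 1 Cry2 probe are shown for another reason, since this was the only clock gene probe to hold a CPE-like motif, set in capitals.
Cry2, A_55_P2016540: aatatttacctgTTTTATaaatgtctgatc
The motifs searched were TTTTAT and TTTTAAT. Among all 55681 probes, 4.54% held either on the printed strand and 6.50% on the reverse complement, against 1 and 0 of the 14 clock gene probes. A probe covers only a small stretch of its transcript, so the absence of these letters says nothing about the rest of the 3′ untranslated region, whose sequence was not used here.

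On all arrays between 68.4% and 74.1% of spots were well above background and no spot was saturated. The arrays of one antibody correlated at 0.976 (CPEB2 IgG) and 0.974 (control IgG) over all probes tested. Markers of brain cells were detected, 43 of 44 probes of 25 genes being well above background on all 4 arrays, whereas the liver genes Alb and Apoa1 were not well above background on any array. Of these 44 brain marker probes, limma called 1 higher with CPEB2 IgG (2.27%, against 12.7% of all probes tested) and 13 lower (29.5%, against 14.8%), and their median log2 fold change was -0.43, against -0.20 over all probes tested. The summed signal of the astrocyte markers was 26674 to 34739 in the CPEB2 IgG precipitates against 198160 to 243394 in the controls, most of it from a single Aldoc probe (30139 and 22718 against 225494 and 183759). Of the 9 astrocyte probes, 4 were called lower in limma, with log2 fold changes of -3.77 (Aldh1l1), -2.91 (Aldoc), -1.73 and -1.71 (Gfap). Another 4 lay above 0 without being called, namely Gja1 (1.01), Aqp4 (0.59 and 0.25) and a second, dimmer Aldh1l1 probe (0.37). The Aldh1l1 probes thus lay on opposite sides of 0. The median of the 9 was -0.90. Of the 8 neuron probes, 4 were called lower in limma and 1 lay above 0, and their median was -1.20. Those called lower were Nefl (-1.84), 2 Rbfox3 probes (-1.65 and -1.47) and Tubb3 (-1.50). The 1 above 0 was the brightest Rbfox3 probe, which was not called (0.053, adjusted p 0.906 in limma), so Rbfox3 depended on the probe. Of the 9 oligodendrocyte probes, 3 were called lower, with a median of -0.98. Of the 11 microglia probes, 1 was called higher in limma, P2ry12 (2.30), and 2 lower, Aif1 (-2.64) and a Csf1r probe (-1.35). Their median was -0.32, and 4 lay above 0. A single Itgam probe read 4078 and 15744 on the control IgG arrays and 9362 and 9187 on the CPEB2 IgG arrays. The summed signals were 80864 to 83525 against 139337 to 146976 for neuron markers, 56899 to 59356 against 50714 to 66228 for oligodendrocyte markers, which overlap, 18259 to 20233 against 20382 to 28827 for microglia markers, and 3790.0 to 5190.2 against 6285 to 7572 for endothelium markers. Of 2 suprachiasmatic nucleus genes, Avp was called lower (-1.86, adjusted p 0.015 in limma) and Six6 was not well above background on any array. The part of these differences in the results on the clock genes was not tested. All arrays lay on 1 slide and each antibody had its own positions there, so position and antibody cannot be told apart.

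The question for each gene was whether more of its mRNA was recovered with CPEB2 IgG than with control IgG. Signals below are the spot intensities of single arrays in arbitrary units before scaling, given for pair 1 and then pair 2. Fold changes are differences of log2 signals after each array was scaled to its 75th percentile, with no pseudocount, and are relative to the other probes of an array. All 14 clock gene probes were well above background on all 4 arrays. limma, fitted to 41133 probes with the pair as a block, called 3 of them higher in the CPEB2 IgG precipitate at an adjusted p under 0.05 (21.4%, against 12.7% of all probes tested) and 1 lower (7.14%, against 14.8%). The probes called higher belong to Clock, Per1 and Per2, and the probe called lower to Nr1d1. The 41133 include probes not well above background on every array. Fitted to the 35361 probes detected on all 4 arrays, limma called 6345 higher and 7521 lower, among them 4 and 1 of the 14. With the brightest probe of each gene, 4174 of 19695 genes were called higher and 4021 lower, among them 3 and 1 of the 10 clock genes. The median log2 fold change of the 14 probes was 0.50, and that of all probes tested was -0.20. In 8 of the 14 the fold change was above 0 in both pairs, in 2 it was below 0 in both, and in 4 the pairs took opposite signs. Of all probes tested, 74.7% took the same sign in both pairs, so agreement of the pairs was not particular to the clock genes.

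**Figure D1:**
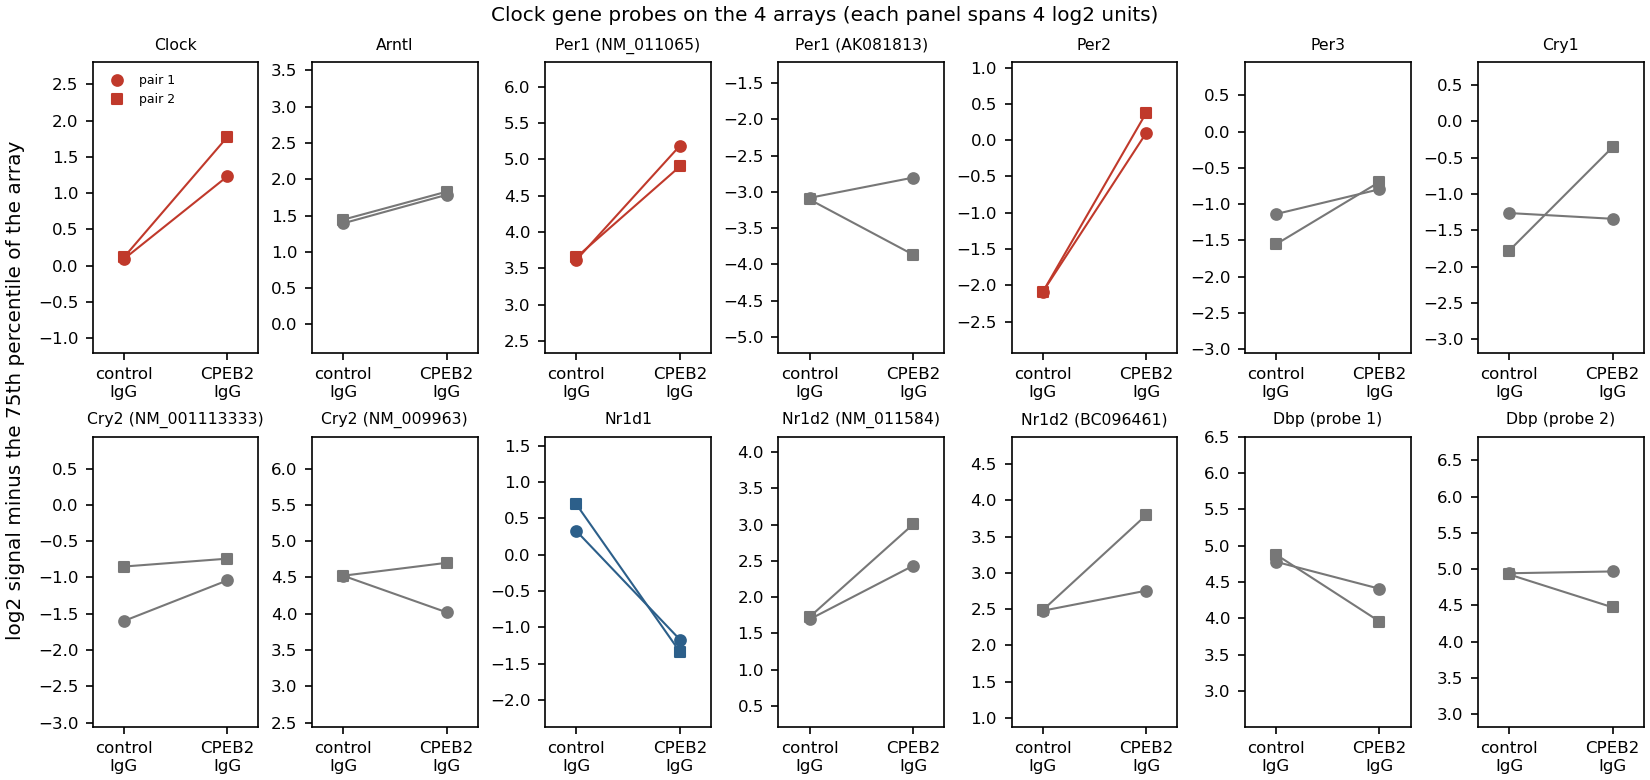
Level of each clock gene probe on the 4 arrays, as log2 signal minus the 75th percentile of the array (vertical axis, log2 units), with control IgG on the left and CPEB2 IgG on the right of each panel. Lines join the arrays of a pair (circles pair 1, squares pair 2), red marks probes called higher by limma, blue lower and grey not called, and in Clock, Per1 (NM_011065), Per2 and Nr1d1 both lines run steeply the same way.

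Among the activators, Clock, which encodes the DNA-binding partner of BMAL1, was recovered more with CPEB2 IgG. Its probe (A_52_P334670, NM_007715, chr5:76641377-76641436 on mm9, minus strand) read 982.3 and 1431 on the CPEB2 IgG arrays and 472.2 and 460.3 on the control IgG arrays. Both CPEB2 IgG arrays lay well above both control IgG arrays, which hardly differed from each other. The log2 fold change was 1.40 (SE 0.30, 95% interval 0.65 to 2.15), or 2.64-fold, with 1.14 in pair 1 and 1.66 in pair 2 and an adjusted p of 0.024 in limma. Arntl (A_55_P2408588, NM_007489, chr7:120457261-120457320, plus strand) read 1442 and 1485 on the CPEB2 IgG arrays and 1163 and 1155 on the control IgG arrays. The groups did not overlap and the pairs were nearly equal, 0.39 in each, but the log2 fold change of 0.39 (95% interval -0.31 to 1.09) was not called, with an adjusted p of 0.347 in limma. Whether the members of this dimer differed from each other in recovery was not tested.

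The Clock call depended on 3 of the 4 arrays, each of which ended it when left out alone. In limma fits without the block, each leaving out 1 array, it was called without CPEB2 IgG replicate 1 (log2 fold change 1.67, adjusted p 0.029) and not called without CPEB2 IgG replicate 2 (1.13, adjusted p 0.061), control IgG replicate 1 (1.39, adjusted p 0.089) or control IgG replicate 2 (1.41, adjusted p 0.082).

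Of the repressors, Per2 showed the largest fold change of the 14 probes. The PER proteins bind CRY and are the rate-setting members of the repressor complex. The Per2 probe (A_51_P282760, NM_011066, chr1:93313046-93313105, minus strand) read 448.5 and 543.1 on the CPEB2 IgG arrays and 104.0 and 99.6 on the control IgG arrays. Both CPEB2 IgG arrays were several times as bright as either control IgG array, and the groups were far apart. This made a log2 fold change of 2.33 (SE 0.28, 95% interval 1.62 to 3.04), or 5.03-fold, with 2.19 and 2.47 in the pairs and an adjusted p of 0.007 in limma. This placed the probe at percentile 97.3 of all probes tested. Per2 was called in each of the 4 limma fits that left out 1 array, with log2 fold changes of 2.19 to 2.47 and adjusted p of 0.021 to 0.044.

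Per1 was measured by 2 probes that read differently. The probe for the transcript NM_011065 (A_55_P1970033, chr11:68923364-68923423, plus strand) read 15243 and 12505 on the CPEB2 IgG arrays and 5429.9 and 5338 on the control IgG arrays. The groups were clearly separate, and the control arrays lay close together. Its log2 fold change was 1.41 (SE 0.29, 95% interval 0.70 to 2.13), or 2.66-fold, with 1.57 and 1.25 in the pairs and an adjusted p of 0.021 in limma. The other probe, designed on the cDNA AK081813 (A_55_P2019327, chr11:68919895-68919954, plus strand), read 59.9 and 28.7 on the CPEB2 IgG arrays and 52.3 and 49.4 on the control IgG arrays. There the CPEB2 IgG arrays fell on either side of the controls, and the log2 fold change of -0.24 (95% interval -1.13 to 0.65) was not called, with an adjusted p of 0.657 in limma. The sign of that value turned to 0.012 under quantile normalization, 0.25 under centring within probe GC bins and 0.051 under normexp background correction. Averaging both probes gave a log2 fold change for Per1 of 0.59 with an adjusted p of 0.155 in limma, and the brightest probe alone an adjusted p of 0.012. The probe for NM_011065 was called without either CPEB2 IgG replicate (adjusted p 0.038 and 0.046, log2 fold change 1.27 and 1.55), and not without control IgG replicate 1 (1.39, adjusted p 0.075) or control IgG replicate 2 (1.43, adjusted p 0.067). The difference between the probes was not tested.

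Per3, the family member least needed for the rhythm, was not called. Its probe (A_51_P258493, NM_011067, chr4:150379256-150379315, minus strand) read 241.2 and 258.5 on the CPEB2 IgG arrays and 201.5 and 144.8 on the control IgG arrays. The groups did not overlap, although the control arrays lay further from each other than the CPEB2 IgG arrays did. A log2 fold change of 0.60 (95% interval -0.15 to 1.35), with 0.34 and 0.86 in the pairs, had an adjusted p of 0.193 in limma. Its interval reached below 0 and above 1, so neither an equal recovery nor a doubling lay outside it.

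Neither cryptochrome gene was called. CRY1 and CRY2 are the members of the repressor complex that bind CLOCK and BMAL1 directly. The Cry1 probe (A_52_P420500, NM_007771, chr10:84594731-84594790, minus strand) read 165.0 and 327.3 on the CPEB2 IgG arrays and 184.7 and 123.7 on the control IgG arrays. Only the CPEB2 IgG array of pair 2 stood above the others, and the groups overlapped. The pairs gave -0.08 and 1.43, a mean log2 fold change of 0.67 (95% interval -0.39 to 1.74) with an adjusted p of 0.292 in limma. This was the widest spread between pairs among the 14 probes, with an SD of 1.07 over 2 pairs.

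Cry2 also had 2 probes, one for each annotated transcript. The probe for NM_001113333 (A_55_P1953708, chr2:92251417-92251476, minus strand) read 203.5 and 250.2 on the CPEB2 IgG arrays and 146.2 and 235.9 on the control IgG arrays. The brighter control array lay between the CPEB2 IgG arrays, and the log2 fold change of 0.33 (95% interval -0.40 to 1.07) had an adjusted p of 0.445 in limma. The probe for NM_009963 (A_55_P2016540, chr2:92243807-92243866, minus strand), which holds the TTTTAT shown above, read 6784 and 10877 on the CPEB2 IgG arrays and 10195 and 9772 on the control IgG arrays. Here the CPEB2 IgG arrays were the lowest and the highest of the 4, and the log2 fold change was -0.16 (95% interval -0.95 to 0.62) with an adjusted p of 0.736 in limma. Under median centring this sign turned, to 0.064.

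Within the stabilising loop the nuclear receptor genes lay on opposite sides of 0. Nr1d1, which encodes the repressor REV-ERBα, was the only clock gene called lower with CPEB2 IgG. Its probe (A_51_P223776, NM_145434, chr11:98630526-98631028, minus strand) spans 503 bases of the genome with 60 bases of sequence, as a probe across a splice junction does. It read 186.0 and 165.3 on the CPEB2 IgG arrays and 555.5 and 687.5 on the control IgG arrays. Both CPEB2 IgG arrays were far below both control IgG arrays. Its log2 fold change was -1.76 (SE 0.30, 95% interval -2.52 to -1.01), which is 3.40-fold lower, with -1.5 and -2.0 in the pairs and an adjusted p of 0.014 in limma. The probe lay at percentile 5.68 of all probes tested. It was called without CPEB2 IgG replicate 1 (-1.85, adjusted p 0.034) and without control IgG replicate 1 (-1.95, adjusted p 0.031). It missed the threshold without CPEB2 IgG replicate 2 (-1.68, adjusted p 0.053) and, by very little, without control IgG replicate 2 (-1.58, adjusted p 0.0502).

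Nr1d2, the gene of REV-ERBβ, was not called, and 1 of its 2 probes missed the threshold narrowly. The probe for NM_011584 (A_52_P303891, chr14:19037253-19037312, minus strand) read 2256 and 3348 on the CPEB2 IgG arrays and 1433 and 1405 on the control IgG arrays. Both CPEB2 IgG arrays were above the controls, most clearly in pair 2. The log2 fold change was 1.01 (SE 0.30, 95% interval 0.25 to 1.76), or 2.01-fold, with 0.74 and 1.28 in the pairs and an adjusted p of 0.059 in limma. It was called in 5 of 17 settings, among them median centring (1.23, adjusted p 0.017), normexp background correction (0.92, adjusted p 0.010), probes detected on all 4 arrays (1.01, adjusted p 0.020) and a fit without CPEB2 IgG replicate 1 (1.29, adjusted p 0.037).

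A further probe annotated as Nr1d2, designed on the cDNA BC096461 (A_55_P2148534), read 2823 and 5811 on the CPEB2 IgG arrays and 2468 and 2380.1 on the control IgG arrays. The CPEB2 IgG array of pair 2 was far above the rest and that of pair 1 only a little above the controls. The log2 fold change was 0.79 (95% interval -0.10 to 1.68), with 0.28 and 1.31 in the pairs and an adjusted p of 0.156 in limma. It was 1.32 without CPEB2 IgG replicate 1 and 0.27 without CPEB2 IgG replicate 2. The annotation puts this probe at chr19:40271435-40271494, on another chromosome than the gene's other probe, and writes the position in a form with a leading zero. Of 104 probes written this way whose gene had another probe, 73 (70.2%) listed another chromosome, against 30 of 6986 genes (0.429%) among the other genes with several probes, so the listed place was not relied on. At the gene level Nr1d2 was not called in limma, with 0.79 (adjusted p 0.120) for its brightest probe and 0.90 (adjusted p 0.066) for the mean of both. Whether Nr1d1 and Nr1d2 differed in recovery was not tested, but the intervals of their log2 fold changes did not overlap.

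**Figure D2:**
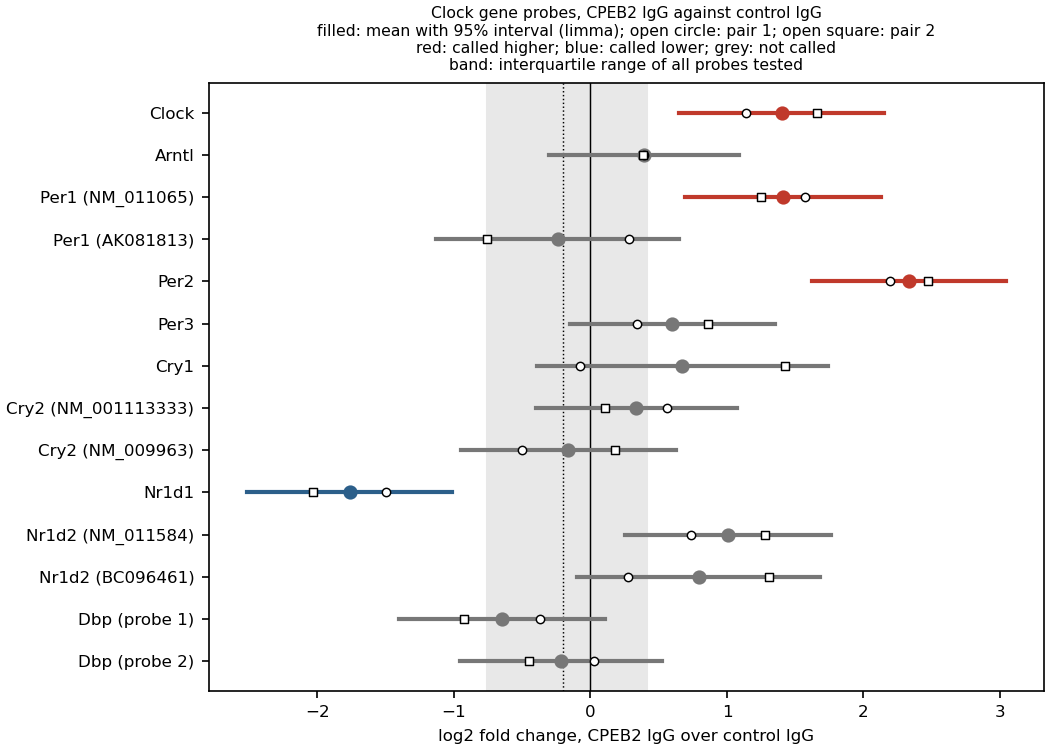
Log2 fold change of CPEB2 IgG over control IgG (horizontal axis) for the 14 clock gene probes, with the limma mean and 95% interval (filled points, bars), the value of each pair (open symbols) and a grey band for the interquartile range of all probes tested, -0.76 to 0.42, around their median of -0.20 (dotted line). Clock, Per1 (NM_011065) and Per2 lie to the right of the band with their whole intervals and Nr1d1 to the left of it, whereas the intervals of the other probes reach into the band.

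Dbp encodes a PAR bZIP factor whose transcription is driven directly by CLOCK and BMAL1, and its probes were not called. Both probes target NM_016974. The first (A_55_P2032079, chr7:52965461-52965520, plus strand) read 8873 and 6486 on the CPEB2 IgG arrays and 12162 and 12500.0 on the control IgG arrays. Both CPEB2 IgG arrays were below the controls, and the log2 fold change was -0.65 (95% interval -1.40 to 0.11) with an adjusted p of 0.169 in limma. The second (A_55_P2032081, chr7:52965322-52965381, plus strand), from the same transcript, read 13091 and 9284 on the CPEB2 IgG arrays and 13629.6 and 12918 on the control IgG arrays. There the groups overlapped after scaling, and the log2 fold change was -0.21 (95% interval -0.96 to 0.53) with an adjusted p of 0.633 in limma. The sign of the second probe turned under median centring (0.013) and centring within probe GC bins (0.29).

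A count by the fold and signal thresholds of the study's methods, which use no test, gave a partly different set. Their further requirement of a CPE in the 3′ untranslated region was not applied, and the use of the mean over pairs and of a signal on either CPEB2 IgG array was a choice made here, because the methods do not say how the experiments were combined. A gene passed if any of its probes had a mean fold change above 1.5 and a signal above 1000 on 1 or both CPEB2 IgG arrays, and 3 of the 10 clock genes passed, against 13.9% of 24164 genes. They were Clock, Per1 and Nr1d2. Per2, which had the largest fold change, stayed below the signal threshold on both CPEB2 IgG arrays and joined when the threshold was lowered to 500. Clock passed through its pair 2 array alone, since its signal in pair 1 was below 1000, and without replicate 2 only Nr1d2 and Per1 passed.

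Fold changes on these arrays varied with the base composition of the probe. Over all probes tested, the correlation of GC content with log2 fold change was -0.32, a description across probes that share arrays and sequence design. The median log2 fold change was 0.21 among 12232 probes of 35% to under 40% GC and -0.47 among 3646 probes of 50% to under 55% GC. The probes of Clock (35.0% GC), Per1 (36.7%) and Per2 (38.3%) fall in the former range and that of Nr1d1 (53.3%) in the latter. Each still lay outside the interquartile range of the probes in its own range, which was -0.42 to 1.07 in the former and -1.07 to -0.05 in the latter. When each array was centred within 20 bins of probe GC content, the log2 fold changes were 1.21 for Clock, 1.54 for Per1, 2.45 for Per2 and -1.26 for Nr1d1, all of them called by limma (adjusted p 0.020, 0.007, 0.002 and 0.015). Cry1, with the lowest GC content of the 14 probes (23.3%), moved from 0.67 to 0.14.

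**Figure D3:**
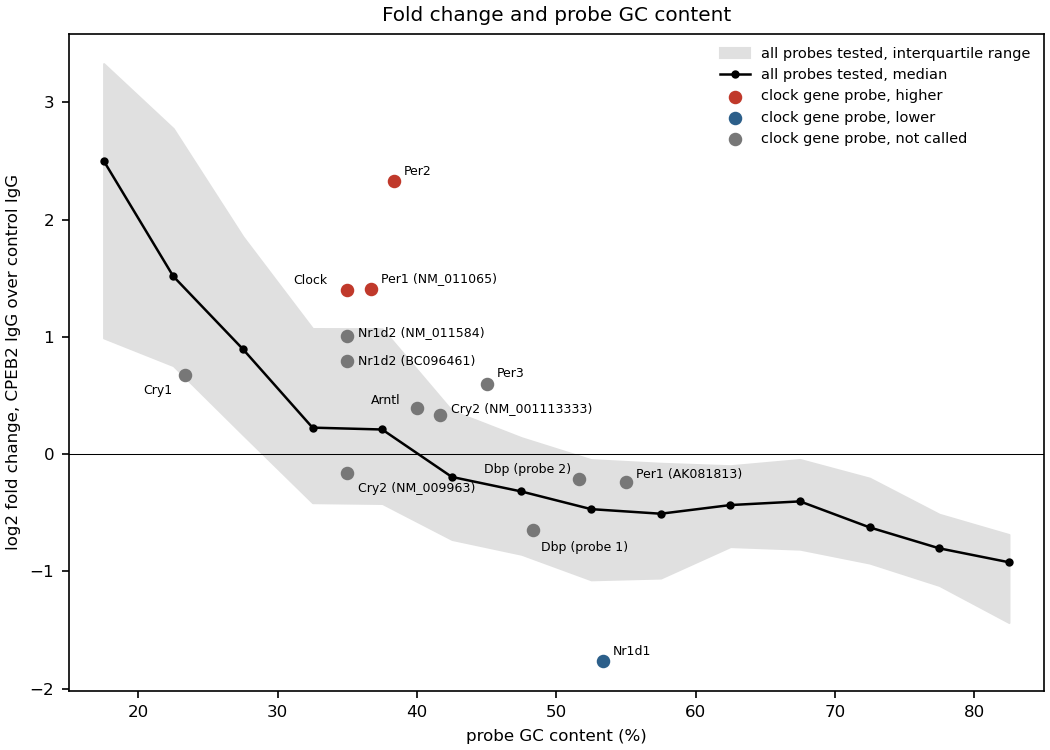
Log2 fold change of CPEB2 IgG over control IgG (vertical axis) against probe GC content in percent (horizontal axis) for the 14 clock gene probes (points, coloured by the limma call), with the median (line) and interquartile range (band) of all probes tested in windows of GC content. The medians fall as GC content rises up to the window from 55%, are slightly higher in those from 60% and 65%, and fall again beyond. The called probes of Clock, Per1 and Per2 lie above the band while that of Nr1d1 lies below it.

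Another 22 genes of the clock pathway, listed by role, were measured by 36 probes, of which 31 were well above background on all 4 arrays. limma called 9 probes higher with CPEB2 IgG (25%) and 2 lower (5.56%), set against the same shares of all probes tested as above, and these calls fell on 10 genes. The 9 include 2 Arntl2 probes that passed the detection filter through the CPEB2 IgG arrays alone, where they are high. Among the 34 probes detected with both antibodies, 7 were called higher (20.6%) and 2 lower (5.88%). Over all 36 probes the median log2 fold change was 0.43, and over the 34 it was 0.34. Of the 36, both pairs were above 0 for 23, both below 0 for 10, and opposite for 3. The share of all probes tested with the same sign in both pairs was 74.7%.

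Among the activators, 2 of 4 probes were called higher (50%, against 12.7% of all probes tested). Both belong to Arntl2, the paralog of Arntl, and their control IgG signals were not well above background on either array, so that only bounds can be given. The first (A_55_P1977658) read 47.5 and 26.4 on the CPEB2 IgG arrays and 10.1 and 11.8 on the control IgG arrays, at least 2.50-fold higher. The second (A_55_P2114796) was at least 1.71-fold higher. These dim probes passed the detection filter through the CPEB2 IgG arrays alone, where they are high, so their calls decide nothing. The bounds refer to the main scaling, and over the settings the fitted log2 fold changes went down to 0.51 and 0.19. A brighter Arntl2 probe was not called (0.79, adjusted p 0.098 in limma). No activator probe well above background with both antibodies was called. Npas2, which can stand in for Clock in the forebrain, had a log2 fold change of 1.16 and narrowly missed the threshold (adjusted p 0.0504 in limma).

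Of 4 probes for Rora and Rorb, genes of ROR receptors, which activate Arntl where the REV-ERBs repress it, none was called by limma, and the log2 fold changes ran from -0.52 to 0.54 (adjusted p 0.293 and 0.228 at these ends).

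Of the D-box factors, Hlf, a relative of Dbp, was called higher. It read 34800 and 36590 on the CPEB2 IgG arrays and 13054 and 12885 on the control IgG arrays, so that the groups were far apart and the pairs alike. The log2 fold change was 1.51, with 1.5 in both pairs and an adjusted p of 0.016 in limma. Tef, of the same family, was not called (0.50, adjusted p 0.248), nor was Nfil3, which represses D-box genes (-0.41, adjusted p 0.326). Among 4 probes of other repressors, Ciart, whose product represses CLOCK and BMAL1, read 556.6 and 944.3 on the CPEB2 IgG arrays and 203.2 and 232.2 on the control IgG arrays. The groups were well apart, with a log2 fold change of 1.79 (1.54 and 2.05 in the pairs, adjusted p 0.013 in limma). The brighter of the 2 Bhlhe41 probes gave -0.80 (adjusted p 0.094) and the dimmer -1.06 (adjusted p 0.051), and neither was called. The mean of both Bhlhe41 probes was called lower (-0.93, adjusted p 0.040 in limma). Bhlhe40 lay on the other side of 0 and was not called (0.70, adjusted p 0.122).

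The kinases and ubiquitin ligases that act on PER and CRY had 12 probes, with 1 called higher (8.33%) and 2 lower (16.7%). These shares lay near those of all probes tested, 12.7% and 14.8%. Csnk1e, which encodes casein kinase 1 epsilon, read 6023 and 10027 on the CPEB2 IgG arrays and 2756 and 2519 on the control IgG arrays at one probe, a log2 fold change of 1.61 (adjusted p 0.021 in limma). Its other probe was not called (-0.48, adjusted p 0.259), and its sign turned under centring within probe GC bins (0.029). Csnk1d, the gene of the delta isoform, was called lower at a probe that read 56.7 and 55.1 on the CPEB2 IgG arrays and 118.9 and 162.6 on the control IgG arrays (-1.26, adjusted p 0.033). A second Csnk1d probe lay on the other side of 0 (0.81, adjusted p 0.086), and it was the one called when the brightest probe stood for the gene (adjusted p 0.047). Btrc, a subunit of an E3 ligase for PER, was likewise called lower at 1 probe (-1.18, adjusted p 0.033) and not at the other (0.31, adjusted p 0.483). The gene-level values of Csnk1e, Csnk1d and Btrc depended on the probe, and the mean of the Csnk1e probes was not called (0.57, adjusted p 0.120 in limma).

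Of 9 probes for clock protein partners and related genes, 4 were called higher (44.4%, against 12.7% of all probes tested). Tipin, the partner of TIMELESS, read 3911 and 4398 on the CPEB2 IgG arrays and 1130.1 and 1165 on the control IgG arrays, a log2 fold change of 1.91 (1.87 and 1.94 in the pairs, adjusted p 0.010 in limma). Usp2, a deubiquitinase acting on clock proteins, gave 1.78 (adjusted p 0.012) and Prok2, a secreted output signal of the suprachiasmatic nucleus, 1.38 (adjusted p 0.030). Timeless was called at a dim probe that was well above background on only 1 of the 2 control IgG arrays (1.25, adjusted p 0.041) and not at the brighter one (0.62, adjusted p 0.155). Without 1 array, Tipin and Usp2 stayed called in each of the 4 fits, but the number of probes called higher fell from 9 to 8 without CPEB2 IgG replicate 1, 5 without CPEB2 IgG replicate 2, 3 without control IgG replicate 1 and 3 without control IgG replicate 2. Neither the Csnk1d nor the Btrc probe stayed called lower in any of the 4 fits. The number called lower was 1 without CPEB2 IgG replicate 1, the dimmer Bhlhe41 probe, and 0 without any of the other 3 arrays, which gave 3, 3 and 2 at an unadjusted p under 0.05 in limma.

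**Figure D4:**
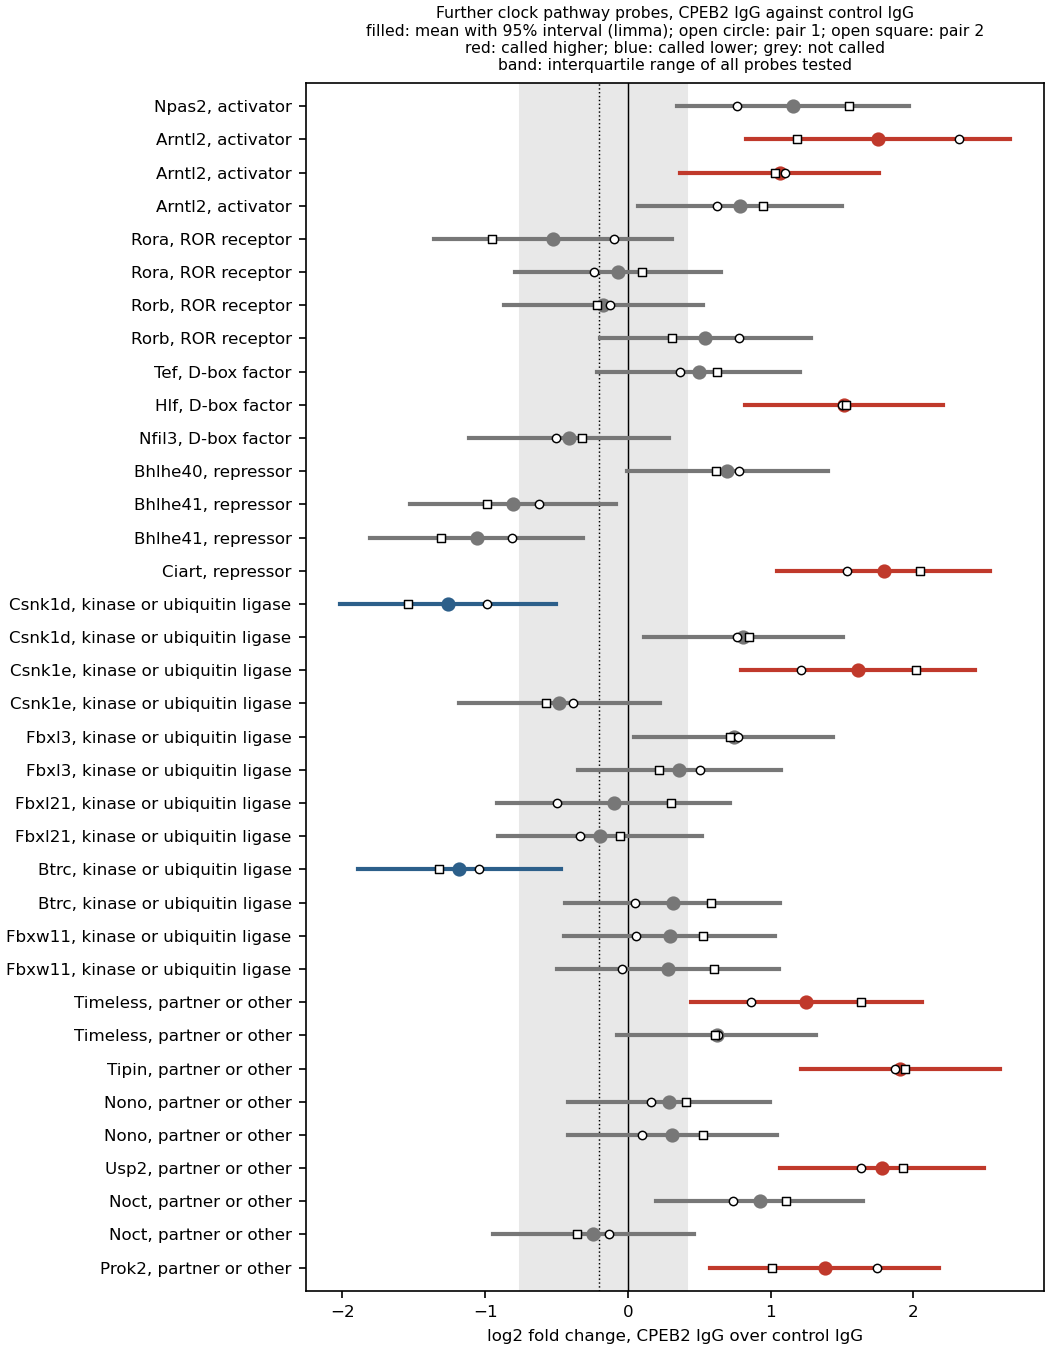
Log2 fold change of CPEB2 IgG over control IgG (horizontal axis) for 36 probes of 22 further clock pathway genes, ordered by role, with the limma mean and 95% interval (filled points, bars), the value of each pair (open symbols) and the interquartile range of all probes tested (grey band). A name that repeats stands for different probes of one gene, and the 9 probes in red and the 2 in blue are those called higher and lower, with probes of Rorb, Csnk1d, Csnk1e, Btrc and Noct on both sides of 0.

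The calls on the clock genes were compared over the processing settings. Per2 was called in 16 of 17 settings, with log2 fold changes of 1.82 to 2.56, Per1 (NM_011065) and Nr1d1 in 14 each and Clock in 13. In the setting that tested all 55615 probes with no filter on dim ones, limma called no probe of any gene, and 4 clock gene probes were higher at an unadjusted p under 0.05 and 1 was lower. In the main fit, 41.3% of all probes tested had an unadjusted p under 0.05 in limma. That share was not counted in the setting without a filter.

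**Figure D5:**
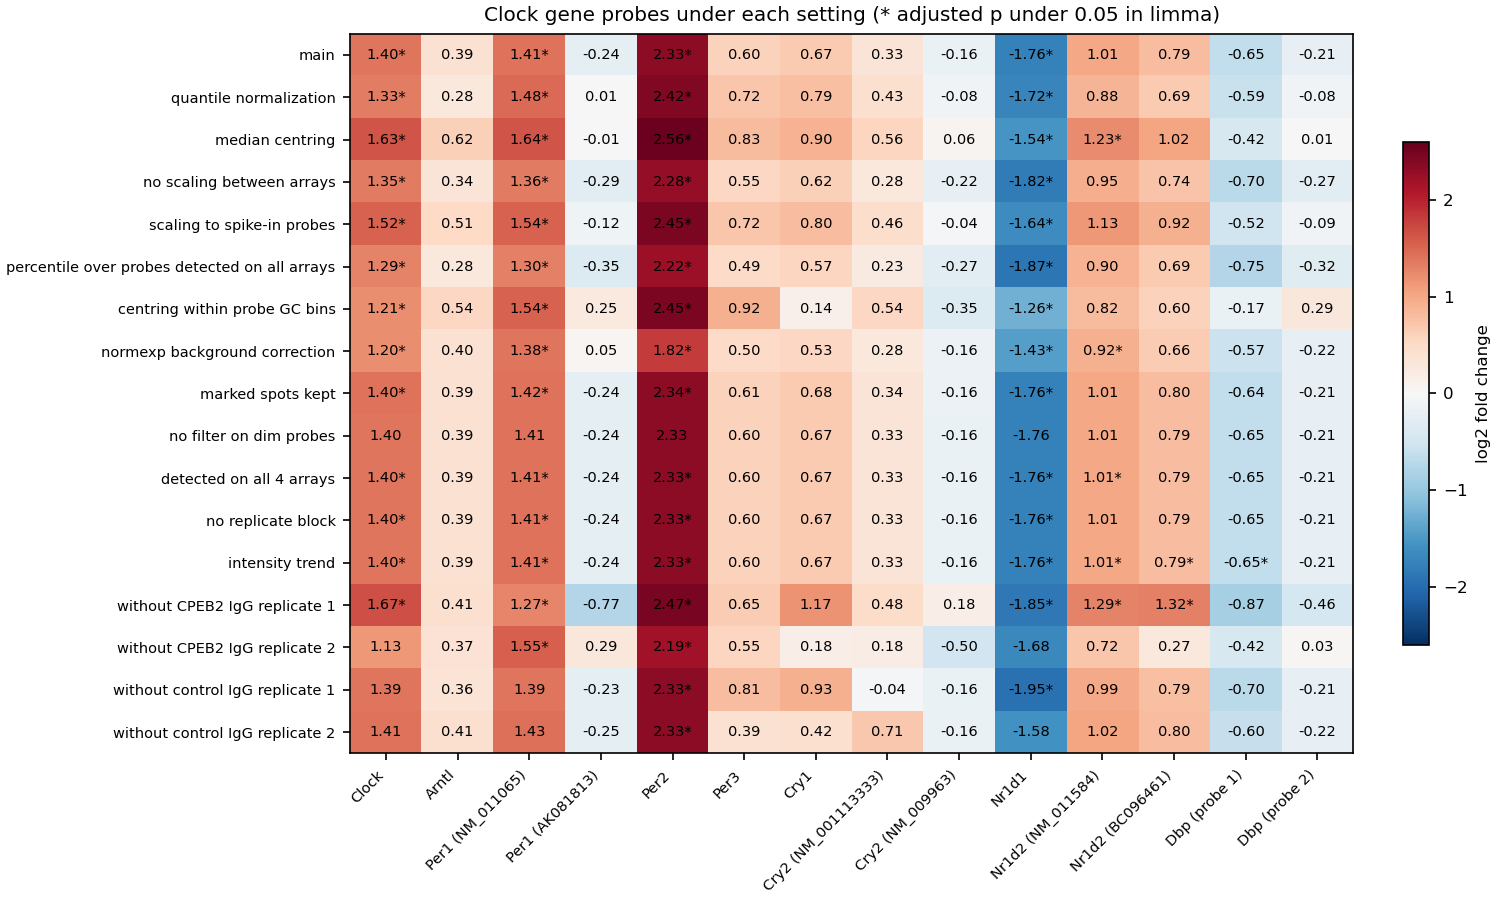
Log2 fold change of CPEB2 IgG over control IgG (colour and printed value) for each clock gene probe (columns) under each of 17 processing settings (rows), with an asterisk where limma's adjusted p was under 0.05. The columns of Clock, Per1 (NM_011065) and Per2 stay above 0 and that of Nr1d1 below 0 in every row, and the asterisks of the called probes are missing in the row without a filter on dim probes and, except for Per2, in some rows that leave out 1 array.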

How the data were processed

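Spot intensities were deposited by the authors as the output of Agilent Feature Extraction 10.5.1.1 for each array, already background-corrected by that software and not scaled between arrays. Probe positions and symbols are those of the array annotation (mm9). The description field of the samples taken here as CPEB2 IgG reads CPEB3 IgG, but their titles and source names (CP2), the treatment protocol and the methods give CPEB2.

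Control spots and marked spots were left out, 66 probes without a value on some array were dropped, and the log2 of the intensity minus the array's 75th percentile was used. limma 3.58.1 (R 4.3.3) was fitted to the probes well above background on at least 2 of 4 arrays, with the replicate number as a block, Benjamini-Hochberg adjustment over 41133 probes and a threshold of 0.05. The methods state that each lysate was divided between the antibodies, which makes the pairs, and arrays of a pair deviated together (correlation 0.206). With 2 arrays against 2, an exact permutation test (two-sided) that ignores the pairs cannot go below p = 0.333. Exchanges within the pairs are fewer still, and the number of arrays limits the precision. Python 3.11.15 (pandas 2.3.3) was used for the rest, and the fit was tested on simulated data.

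The members, the further genes and the marker lists were chosen with earlier results of these data known. Every member probe is named. An item of the further list is not reported here and is left out of its counts. Of the further genes, those called with the largest and the smallest change in each role were to be named. Npas2, Btrc, Usp2, Prok2, Bhlhe40, Bhlhe41, Tef, Nfil3, Rora, Rorb and the uncalled probes of named genes were added after their values were seen. The alternatives were quantile normalization, median centring, no scaling, scaling to spike-in probes, the percentile over detected probes, centring in 20 GC bins, normexp (offset 50), marked spots kept, other filters, no block, an intensity trend, gene-level values, other thresholds and fits without 1 array, in which a lone array is assumed to vary like the others. Leaving out a replicate from the threshold count was added after seeing the data.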

Additional observations from a re-analysis of the deposited data

How the results depend on the processing

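The number of calls varied with the processing and with the arrays used. For the 4 called clock gene probes, 53 of 64 values under 16 alternatives stayed called in the same direction, 11 kept the direction but missed the threshold and 0 reversed. Without the replicate block, the counts were 3 higher and 1 lower, so the pairing changed no call among the 14 probes, and 5432 and 5928 of all probes were called against 5228 and 6095 with the block. Clock gene probes called higher numbered 0 with no filter on dim probes (4 at an unadjusted p under 0.05 in limma) and 5 with an intensity trend, against 3, and those called lower 0 (1 at an unadjusted p under 0.05) and 2, against 1. Over all 41133 probes the intensity trend raised the calls to 7224 higher and 8672 lower. Leaving out 1 array in turn gave 1 to 5 higher and 0 to 1 lower. Probes of the further clock genes called higher numbered 15 under median centring, where 7500 of all 41133 probes were called higher against 5228, and 0 with no filter (15 at an unadjusted p under 0.05), against 9, and 3 to 8 without 1 array. Those called lower numbered 0 with spike-in scaling (2 at an unadjusted p under 0.05), 1 with GC centring, 0 with no filter (4 at an unadjusted p under 0.05), and 4 both for probes detected on all 4 arrays and with an intensity trend, against 2, and 0 to 1 without 1 array. The clock genes past the study's thresholds numbered 2 to 4, with Arntl joining under median centring, and 2 to 3 without 1 pair. The unadjusted counts given here and for the further genes above have no share over all probes from their own settings. In the main fit that share was 41.3% of all probes tested in limma, in either direction. The cause of these shifts was not tested.

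Signs turned in 4 of the 14 clock gene probes and in 9 of the 36 further probes over the settings, and 0 of these were called. For Per1 A_55_P2019327 they became 0.012 under quantile normalization, 0.25 under GC centring and 0.051 under normexp, and ranged from -0.77 to 0.29 without 1 array. For Cry2 A_55_P1953708 they ranged from -0.041 to 0.71 without 1 array, and for Cry2 A_55_P2016540 from -0.50 to 0.18, with 0.064 under median centring. For Dbp A_55_P2032081 they were 0.013 under median centring and 0.29 under GC centring, and ranged from -0.46 to 0.033 without 1 array. Among the further probes these were 2 each of Rora, Fbxl21 and Fbxw11 and 1 each of Rorb, Noct and Csnk1e, where A_55_P2122555 gave 0.029 under GC centring. Scaling moved the median of all probes, by 0.16 under quantile normalization, 0.23 under median centring, 0.12 under spike-in scaling, 0.24 under GC centring, 0.13 under normexp and -0.11 with the percentile over detected probes, and the share of calls that were higher was 57.3% under median centring, against 46.2%. Among all probes tested, calls numbered 11323 in all, 0 with no filter on dim probes, and 5502, 5356 and 5568 without CPEB2 IgG replicate 2, control IgG replicate 1 and control IgG replicate 2.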
